A study of Mus musculus with 18 samples.

Results

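The distal colon of Il10KO mice at 10 weeks of age was compared with that of Il10KO mice at 8 weeks, an early interval in the spontaneous colitis of this model. The 6 libraries used, 3 of each age, were chosen by genotype and age and are 6 of the 18 libraries of the series. All 6 mice were BALB/c and lacked Il10, each was sampled at 1 age, and each library came from a piece of distal colon about 0.5 cm long. The other 12 libraries are Il10KO mice of 6, 12 and 14 weeks and wild-type BALB/c mice of 6 weeks, 3 in each group. Wild-type mice were taken at 6 weeks and at no later age, so that a change from colitis and a change from age alone cannot be told apart. The week 8 mice came from cages B, C and D and the week 10 mice from cages B, C and F.

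Interleukin 10 holds back macrophages and effector T cells, and mice without this cytokine develop colitis in response to gut bacteria. As colitis advances, epithelial and immune cells secrete chemokines that recruit neutrophils, endothelium displays selectins that let leukocytes attach, and interferon-gamma from T cells induces antimicrobial genes in the epithelium. Absorptive colonocytes, which live largely on the oxidation of short fatty acids, lose part of their transport and detoxification programme in inflamed mucosa.

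The Il10 transcript had 0 estimated counts in all 6 libraries, which allows up to 0.0913 to 0.1132 CPM (a count relative to the library's total) in a library, taking 3 counts as the limit of a 0. In wild-type libraries of week 6 it had 1, 0 and 3 counts, so that the check of the genotype has little room at this depth. The labels do not say in what material lipocalin was assayed. Lipocalin, a marker of gut inflammation encoded by Lcn2, was 102.2, 135.5 and 106.8 ng/g in the week 8 mice (114.8 ± 18.1, SD, n = 3). It was 554.3, 339.5 and 363.7 ng/g in the week 10 mice (419.2 ± 117.6, SD, n = 3), 3.65 times the week 8 mean. Every week 10 mouse lay above every week 8 mouse, and the difference of 304.3 ng/g had an exact two-sided permutation p of 0.1, the smallest that 3 against 3 can give.

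Library totals were 26495521 to 30476552 counts at week 8 and 29747473 to 32844928 at week 10, and the RNA integrity number was 8.4 to 9.3 and 8.5 to 9.0. Markers of colon epithelium were abundant at both ages, for example Lypd8, a protein of the colonic surface, at 12300, 14100 and 22600 CPM at week 8 and 18800, 19500 and 16200 CPM at week 10. The week 10 libraries were less alike than the week 8 libraries. Pearson correlations of log2 CPM across genes, which are not independent replicates, were 0.956 to 0.965 within week 8, 0.919 to 0.962 within week 10 and 0.862 to 0.970 between the ages. Week 10 replicate 1 stood furthest from the others, with 0.422% of its counts in the neutrophil genes S100a8 and S100a9 against 0.0167% and 0.002% in the other week 10 libraries. Week 10 replicate 3 lay closest to week 8, with its highest correlation, 0.970, to week 8 replicate 3. Leaving out 1 library bears on many of the list medians below, and its effect is given beside most of them.

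Of 16300 genes tested, 19 rose from week 8 to week 10 and 13 fell, by the quasi-likelihood F-test of edgeR with a Benjamini-Hochberg adjusted p under 0.05. Those are 0.117% and 0.0798% of the genes tested. The risers included genes of bacterial sensing and NF-kB signalling, epithelial glycosylation, and polyamine, nucleotide and ribosome synthesis. The fallers included genes of ceramide and mucin glycan metabolism, a translation inhibitor and a Myc antagonist. Rises ran from 1.01 to 3.82 on the log2 scale and falls from -1.14 to -2.81, and the smallest adjusted p was 0.0178. In all 32 genes the week 8 and week 10 libraries did not overlap, which also held for 12.5% of all tested genes upward and 11.5% downward. An unadjusted p under 0.05 was found for 3177 genes, or 19.5%, where 815 would pass by chance. The spread behind the test comes from all 18 libraries. With the 6 libraries alone no gene passed in edgeR and 3055 had an unadjusted p under 0.05. The 31 of these 32 genes tested there had adjusted p up to 0.133 (edgeR). They kept their direction, which groups without overlap made nearly certain beforehand. Without the 3 week 14 libraries, whose RNA integrity numbers were 9.0, 6.5 and 5.8, 1773 genes rose and 1721 fell, of 16176 tested. With library size in place of TMM scaling 12 rose and 4 fell, among them 9 of the 19 risers and 4 of the 13 fallers. Of single libraries left out, week 8 replicate 1 gave 1 call and each of 4 others gave 0. Omitting week 10 replicate 2 gave 24 calls, which held 9 of the 19 risers and 7 of the 13 fallers.

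**Figure D1:**
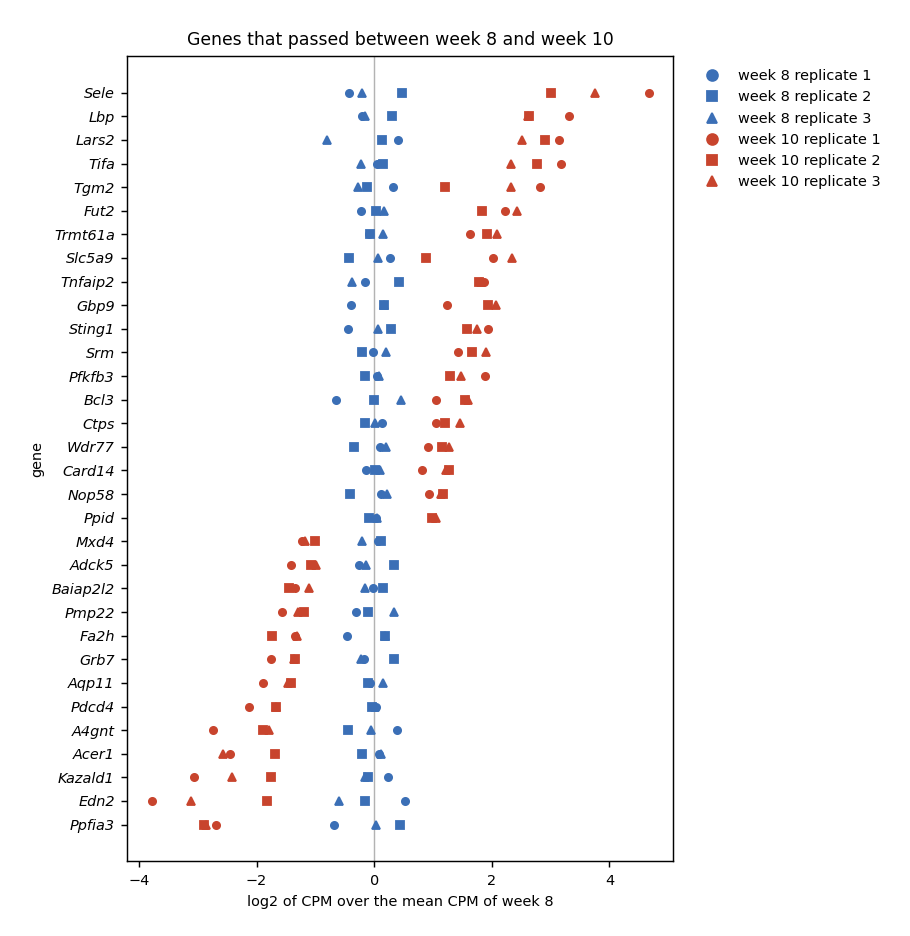
The x axis gives the log2 of each library's CPM over the mean CPM of week 8, and the rows are the 32 genes that passed. Blue and red points are the 3 week 8 and 3 week 10 libraries, with a symbol for each replicate number. In all 32 rows the red points lie on 1 side of the blue points, from Sele (fitted log2 change 3.82) to Ppfia3 (-2.81).

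Promoters of the genes that moved together were read for motifs of the pathways named above. RefSeq promoter windows (build GRCm38.p6, 250 bases before to 50 after a start site) were matched for 19 of the 32 genes. The motifs were a kappaB site of NF-kB (GGGNNNTTCC), a GAS site of STAT factors (TTCNNNGAA) and an E-box of Myc and Max (CACGTG), each searched on both strands. Among the 10 risers matched, 2 held the kappaB letters, 3 the GAS letters and 3 the E-box. Among the 9 fallers matched, the numbers were 0, 1 and 1. Of all 27025 genes with windows, 6.31%, 9.55% and 8.09% held them in any window, and of all 32851 windows 5.56%, 8.3% and 7.15% did. These matches are descriptions of letters, with no evidence of binding. The windows shown are those of an endothelial adhesion gene (Sele, chr1:164047984-164048283, plus strand), an adaptor of bacterial sugar sensing (Tifa, chr3:127790407-127790706, plus strand), a glycolytic regulator (Pfkfb3, chr2:11502041-11502340, minus strand) and an inhibitor of translation that fell (Pdcd4, chr19:53891981-53892280, plus strand). Capitals mark the matches, a GAS site in Sele, a kappaB site in Tifa, an E-box in Pfkfb3 and a GAS site in Pdcd4. Their first bases lie at -140, 33, -53 and -71 from the start site. Tifa, Pfkfb3 and Pdcd4 each have a second window with no match.
Sele: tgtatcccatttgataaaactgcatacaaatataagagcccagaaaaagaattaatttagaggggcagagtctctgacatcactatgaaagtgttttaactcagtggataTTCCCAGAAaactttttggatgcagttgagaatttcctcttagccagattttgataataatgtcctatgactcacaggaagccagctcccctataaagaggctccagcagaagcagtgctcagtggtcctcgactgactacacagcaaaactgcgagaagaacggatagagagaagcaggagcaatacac
Tifa: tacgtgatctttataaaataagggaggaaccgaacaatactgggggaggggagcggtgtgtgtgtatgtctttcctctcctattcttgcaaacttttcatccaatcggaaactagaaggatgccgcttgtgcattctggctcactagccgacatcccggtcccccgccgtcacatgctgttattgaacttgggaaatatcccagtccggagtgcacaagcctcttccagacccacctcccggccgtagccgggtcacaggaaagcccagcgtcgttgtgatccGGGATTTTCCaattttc
Pfkfb3: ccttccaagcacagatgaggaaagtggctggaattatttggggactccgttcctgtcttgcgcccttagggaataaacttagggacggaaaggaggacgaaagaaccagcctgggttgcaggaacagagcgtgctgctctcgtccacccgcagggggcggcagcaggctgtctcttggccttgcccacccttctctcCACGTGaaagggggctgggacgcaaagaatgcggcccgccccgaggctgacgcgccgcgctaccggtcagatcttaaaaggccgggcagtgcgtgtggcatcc
Pdcd4: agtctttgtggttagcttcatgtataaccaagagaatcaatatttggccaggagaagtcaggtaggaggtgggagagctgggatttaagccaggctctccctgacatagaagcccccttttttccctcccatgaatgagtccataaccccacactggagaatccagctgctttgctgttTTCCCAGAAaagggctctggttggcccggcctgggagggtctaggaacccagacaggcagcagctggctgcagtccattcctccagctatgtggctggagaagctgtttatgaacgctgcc

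Among the risers were genes that sense bacterial products or pass signals to NF-kB. Lbp, the protein that carries lipopolysaccharide to CD14 and its receptor (chr2:158306493-158332852 in GENCODE on GRCm38, the build of all positions here), was at 13.5, 19.2 and 13.9 CPM at week 8 and at 154, 95.8 and 95.6 CPM at week 10. Its log2 fold change was 2.89 ± 0.55 (SE; adjusted p = 0.048, edgeR), about 7.41-fold. Tifa, an adaptor that passes on the detection of bacterial heptose sugars (chr3:127789805-127832164), stood at 32.5, 34.7 and 26.8 CPM and then at 283, 213 and 157 CPM. Tifa thus had a tight week 8 group and a week 10 group that was higher in every mouse, with a log2 fold change of 2.80 ± 0.49 (adjusted p = 0.0263, edgeR). Tnfaip2, a gene induced by tumour necrosis factor (chr12:111442469-111455018), rose from 18, 26.8 and 15.4 CPM to 73.6, 69.3 and 70.4 CPM, a log2 fold change of 1.83 ± 0.29. Bcl3, an atypical IkB protein that works with NF-kB in the nucleus, went from 39.6, 62.1 and 85.3 CPM to 129, 181 and 189 CPM (1.42 ± 0.25). Card14, a scaffold of the BCL10 and MALT1 complex upstream of NF-kB, went from 21.6, 24.1 and 25.6 CPM to 42.0, 57.5 and 55.5 CPM (1.12 ± 0.20). The week 8 values of Bcl3 were spread over a wider range than those of Tnfaip2 and Card14, but all 3 genes had separate groups.

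Sensing of cytosolic DNA and interferon-inducible defence each contributed 1 gene. Sting1, the adaptor that responds to cyclic dinucleotides, stood at 22.5, 37.2 and 31.7 CPM at week 8 and at 116, 90.5 and 102 CPM at week 10, a log2 fold change of 1.76 ± 0.31 (adjusted p = 0.0263, edgeR). Gbp9, an interferon-induced guanylate-binding GTPase (chr5:105077630-105139539), went from 13.1, 19.2 and 19.2 CPM to 40.5, 65.7 and 72.1 CPM (1.79 ± 0.34). The Gbp genes on this chromosome are close copies, and reads they share may have been divided between them in the authors' estimate. Sele, or E-selectin, the endothelial receptor that slows leukocytes in venules (chr1:164048234-164057677), had 0.0317, 0.059 and 0.037 CPM at week 8, which was 4 counts over the group. At week 10 it had 1.08, 0.341 and 0.572 CPM, a fitted log2 fold change of 3.82 ± 0.75 (adjusted p = 0.048, edgeR). This was the largest rise among the 32, at a level where single counts set the week 8 values.

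A set of 3 further risers act at cell surfaces, in transport or in the matrix. Fut2, the fucosyltransferase that places fucose on glycans of the epithelial surface (chr7:45648591-45666394), was at 121, 145 and 159 CPM at week 8 and at 661, 504 and 759 CPM at week 10. With a log2 fold change of 2.18 ± 0.29, or 4.53-fold, it had the smallest p of the comparison (adjusted p = 0.0178, edgeR). Tgm2, the tissue transglutaminase that cross-links proteins (chr2:158116402-158146436), went from 112, 82.1 and 74 CPM to 634, 207 and 448 CPM (2.27 ± 0.36). Slc5a9, a sodium-coupled sugar transporter, went from 4.28, 2.63 and 3.70 CPM to 14.4, 6.49 and 17.9 CPM (1.87 ± 0.33). For both, week 10 replicate 2 was the lowest of the week 10 libraries.

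Other risers take part in biosynthesis and growth. Srm, spermidine synthase (chr4:148591503-148594993), stood at 23.4, 20.6 and 27.3 CPM at week 8 and at 63.7, 75.4 and 89.2 CPM at week 10, a log2 fold change of 1.68 ± 0.27 (adjusted p = 0.0253, edgeR). Ctps, which makes cytidine triphosphate, went from 26.5, 21.5 and 24.2 CPM to 50, 55.6 and 66.3 CPM (1.25 ± 0.20). Nop58, a core protein of the particles that methylate ribosomal RNA, went from 54.5, 37.8 and 58.9 CPM to 95.8, 113 and 111 CPM (1.08 ± 0.18). In these genes week 10 replicate 1, the library with the most neutrophil transcript, was the lowest of the 3 week 10 libraries. Trmt61a, the catalytic subunit of a tRNA methyltransferase (chr12:111678105-111683902), went from 4.60, 4.63 and 5.37 CPM to 15, 18.4 and 20.6 CPM (1.89 ± 0.27). Wdr77, a partner of the arginine methyltransferase Prmt5, changed by 1.12 ± 0.19 and Ppid, a cyclophilin that works with Hsp90, by 1.01 ± 0.17. Ppid had tight groups, at 20.4, 18.9 and 20.8 CPM and at 40.0, 39.4 and 41.4 CPM. Pfkfb3, which makes the activator of glycolytic phosphofructokinase (chr2:11471433-11554077), went from 31.5, 27.4 and 32.2 CPM to 112, 73.9 and 84.3 CPM, a log2 fold change of 1.57 ± 0.27.

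Lars2, the leucyl-tRNA synthetase of mitochondria (chr9:123366927-123462666), rose in the gene table from 264, 219 and 115 CPM to 1770, 1490 and 1140 CPM, a log2 fold change of 2.88 ± 0.52 (adjusted p = 0.032, edgeR). In the transcript tables this rise sat in 1 transcript, ENSMUST00000217116.1, which GENCODE annotates as a target of nonsense-mediated decay. It stood at 91.0, 54.4 and 14.9 TPM (a share of transcripts scaled by length) at week 8 and at 401, 351 and 365 TPM at week 10. Its mean share of the gene's TPM was 69.0% and then 96.2%. The leading protein-coding transcript, ENSMUST00000038863.8, was at 24.0, 21.5 and 25.2 TPM at week 8 and at 7.58, 9.94 and 25.9 TPM at week 10, so that its groups overlapped and its mean was not higher. Of the 31 genes with matched transcripts, Lars2 was the 1 whose leading coding transcript did not move with the gene by mean TPM. In 25 of the other 30 that transcript also had groups without overlap. In Ppfia3 the leading transcript was an annotated retained intron.

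**Figure D2:**
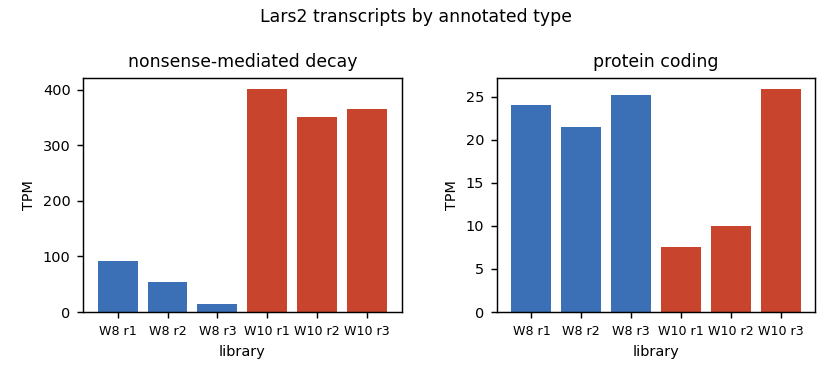
Bars give TPM of the 2 leading Lars2 transcripts in each library (W8 and W10, r1 to r3), on separate y axes that start at 0. The transcript annotated for nonsense-mediated decay was at most 91.0 TPM at week 8 and at least 351 TPM at week 10, while the coding transcript stayed between 7.58 and 25.9 TPM.

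The 13 fallers included genes of lipid and glycan metabolism and of growth control. Ppfia3, a liprin scaffold protein (chr7:45339122-45367019), fell from 11, 23.8 and 17.9 CPM to 2.73, 2.36 and 2.41 CPM, a log2 fold change of -2.81 ± 0.40 (adjusted p = 0.0178, edgeR). Acer1, an alkaline ceramidase (chr17:56953490-56982126), stood at 27.0, 22.1 and 27.6 CPM and then at 4.65, 7.95 and 4.31 CPM (-2.18 ± 0.38). Fa2h, which hydroxylates fatty acids of sphingolipids, went from 53.3, 82.6 and 83.1 CPM to 28.8, 21.9 and 29.5 CPM (-1.45 ± 0.25). These 2 enzymes of sphingolipid metabolism both had week 10 groups well below week 8. A4gnt, which adds the terminal sugar of gland-type mucin glycans (chr9:99612502-99622367), went from 9.42, 5.28 and 6.92 CPM to 1.08, 1.95 and 2.08 CPM (-2.08 ± 0.32). Edn2, the peptide endothelin 2 (chr4:120161206-120167360), went from 6.06, 3.75 and 2.78 CPM to 0.307, 1.19 and 0.482 CPM (-2.66 ± 0.45). Kazald1, a secreted protein with a Kazal domain, went from 5.30, 4.16 and 4.03 CPM to 0.538, 1.33 and 0.843 CPM (-2.31 ± 0.38). For all 3 genes week 10 replicate 1 was the lowest library.

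Pdcd4 and Mxd4, regulators of translation and growth, also fell. Pdcd4, which binds the helicase eIF4A and holds back translation (chr19:53892231-53929860), was even at week 8, at 107, 102 and 106 CPM, and stood at 23.9, 33.1 and 33.1 CPM at week 10. Its log2 fold change was -1.81 ± 0.33 (adjusted p = 0.033, edgeR). Mxd4, which competes with Myc for Max (chr5:34173883-34187720), went from 90.9, 93.5 and 75.5 CPM to 36.9, 43.0 and 38.3 CPM (-1.14 ± 0.19). They were 3.5-fold and 2.2-fold lower, with gaps between the groups larger than the range within either. Grb7, an adaptor of receptor tyrosine kinases, changed by -1.48 ± 0.23. Aqp11, an aquaporin of internal membranes, went from 10.2, 9.95 and 11.8 CPM to 2.88, 3.99 and 3.85 CPM (-1.58 ± 0.23). Pmp22, a membrane protein best known from myelin, changed by -1.34 ± 0.24, and Baiap2l2, a membrane-bending protein of microvilli, by -1.30 ± 0.25. Adck5, a kinase-like protein, changed by -1.15 ± 0.21.

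The cage labels allow the comparison to be repeated inside cages B and C, with 1 library of each age in each and no test. In both cages all 19 risers were higher at week 10 and all 13 fallers were lower. Since the groups of these 32 genes do not overlap, no other sign was possible, and the cages add no separate support. For Fut2 the log2 difference was 2.45 in cage B and 1.80 in cage C, and for Pdcd4 it was -2.16 and -1.63. With cage as a term in the fit no gene had an adjusted p under 0.05, while 3689 genes had an unadjusted p under 0.05. The genes just outside the threshold were Wdr12, a ribosome assembly factor, at an adjusted p of 0.0521 (edgeR), and a group at 0.0538 that held Hpgd, the enzyme that breaks down prostaglandins, and Cyp2c68.

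Many genes had larger fitted changes than the 32 that passed, with larger spread between mice. The median SD of log2 CPM within a group was 0.29 at week 8 and 0.25 at week 10 for these genes, against 0.37 and 0.46 for all genes. A log2 change of at least 2 was fitted for 311 genes upward and for 192 downward, of which 11 passed. Over those large changes the median SD was 0.75 at week 8 and 1.15 at week 10.

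**Figure D3:**
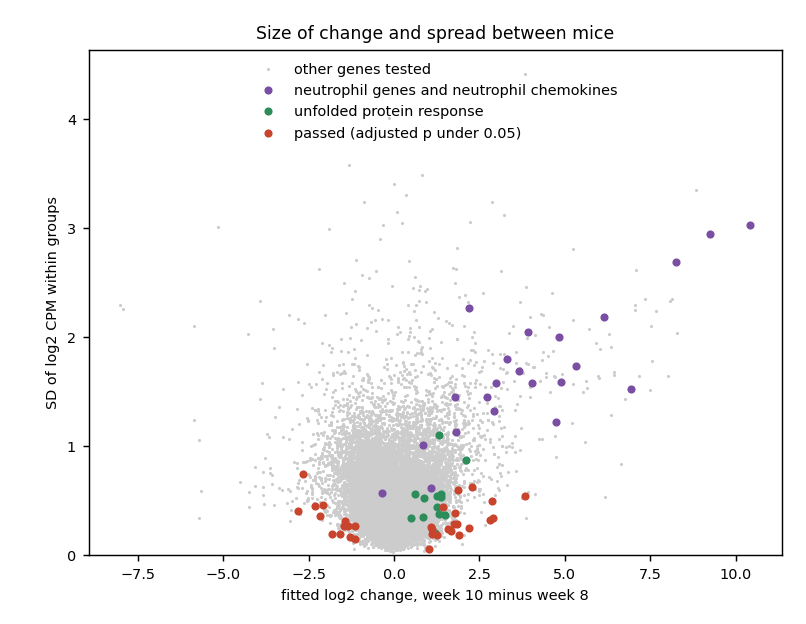
Each point is a gene, with its fitted log2 change from week 8 to week 10 on the x axis and the SD of log2 CPM within the groups on the y axis. Red points, the 32 genes that passed, lie at low spread, and the purple points of neutrophil genes and neutrophil chemokines reach a log2 change of 10.43 at high spread.

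S100a8 had the largest fitted change of all genes tested, but no neutrophil gene or neutrophil-attracting chemokine passed in the main fit. Without the week 14 libraries 12 of 16 neutrophil genes and 4 of 4 chemokines rose, against 1773 of all 16176 genes. DESeq2 called 10 of 17 neutrophil genes higher and RIN as a covariate gave 11, against 520 and 1036 of all 16300 genes. With library size scaling or cage as a factor 0 of 17 passed. S100a8, a subunit of calprotectin, was at 0.19, 1.24 and 0.777 CPM at week 8 and at 2980, 80.4 and 10.8 CPM at week 10, a fitted log2 change of 10.43 ± 2.60 (adjusted p = 0.0891, edgeR). For S100a8 all 3 week 10 mice lay above week 8, but they differed widely among themselves. Of 17 neutrophil genes tested, 16 had a positive fitted change, with a median of 2.97 against -0.02 over all genes, and 8 had separate groups above week 8, where 12.5% of all genes did. That median was 1.49 without week 10 replicate 1. Ly6g, a surface marker of neutrophils, was at 199, 404 and 563 CPM and then at 1060, 781 and 603 CPM. It was thus already high at week 8, where S100a8 was at 1.24 CPM or less. Which cells the Ly6g transcript came from was not tested. Mpo was at or below 0.50 CPM in all 6 libraries, and Camp, Elane and Ngp did not pass the filter on low counts.

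Neutrophil chemokines and growth factors were at low levels at week 8 and separate at week 10. All 5 tested members had positive changes and separate groups above week 8, where 12.5% of all genes had such groups. Their median was 6.16, or 5.34 with Csf3 at its bound, and 3.62 without week 10 replicate 1. In the fit without week 14 only 4 members met the filter on low counts, with a median of 5.71. Cxcl5 was at 0.761, 3.13 and 2.04 CPM at week 8 and at 1750, 49.2 and 12.6 CPM at week 10 (log2 change 8.25 ± 2.08, adjusted p = 0.0931, edgeR). Cxcl1 was at 1.14, 1.56 and 0.703 CPM and then at 68.8, 14.9 and 7.38 CPM, in the same order of week 10 mice. Csf3, the granulocyte growth factor, had 0 counts at week 8 and 1.42, 0.0341 and 0.0602 CPM at week 10. Among week 10 libraries, S100a8, Cxcl5 and Cxcl1 were highest in replicate 1 and lowest in replicate 3, while Csf3 was highest in replicate 1 and lowest in replicate 2.

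Other cytokines had positive medians with wide spread. Of 12 inflammatory cytokines 11 had positive changes, with a median of 2.55 and 5 with separate groups, and the median was 1.05 without week 10 replicate 1. Separate groups above week 8, as counted for each list here, were found for 12.5% of all genes. Il1b was at 3.05, 14.8 and 3.22 CPM and then at 369, 47.1 and 16.0 CPM (4.36 ± 1.31), and Il1f9, the interleukin 36 gamma gene, had a log2 change of 5.72 ± 1.58 (adjusted p = 0.104, edgeR). Among CC chemokines 11 of 12 had positive changes and 4 had separate groups, with a median of 1.35 that ran from 0.94 to 1.69 when 1 library was left out. Ccl7, a monocyte attractant, was at 0.73, 4.99 and 4.48 CPM and then at 274, 162 and 36.8 CPM (5.53 ± 1.52, adjusted p = 0.105, edgeR). Among T helper cytokines and regulators 11 of 13 had positive changes and 5 had separate groups. Ifng stood at 0.0952, 0.856 and 0.333 CPM and then at 6.15, 15.2 and 5.06 CPM (4.34 ± 1.17, adjusted p = 0.1, edgeR). Ifng was highest in week 10 replicate 2, not in replicate 1.

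Interferon-gamma inducible genes had positive changes in 25 of 25 members, with a median of 1.39, but their week 8 mice already differed. The median SD of log2 CPM was 1.40 within week 8 and 0.92 within week 10. Of the 25, 9 had separate groups above week 8, where 12.5% of all genes did. Socs1, an inhibitor of cytokine signalling, was at 6.38, 28.1 and 37.2 CPM at week 8 and at 89.5, 314 and 230 CPM at week 10 (3.14 ± 0.90, adjusted p = 0.115, edgeR). Cxcl9, a T cell attractant, was at 13.1, 47.6 and 87.1 CPM and then at 228, 460 and 189 CPM. Ido1, which breaks down tryptophan, was at 7.68, 111 and 406 CPM at week 8 and at 372, 338 and 380 CPM at week 10, so that 1 week 8 mouse was already as high as the week 10 mice. In this list week 8 replicate 1 was the lowest library, and without it the median was 0.97, while without week 8 replicate 3 it was 2.20. Type I interferon inducible genes had positive changes in 18 of 19 members with a median of 0.97 (0.64 without week 10 replicate 2), and 6 had separate groups. The 10 genes of MHC class II presentation had a median of 0.35, which became -0.08 without week 8 replicate 1 and 0.66 without week 8 replicate 2.

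Epithelial defence genes had positive changes in 14 of 17 members, with a median of 1.53 that ran from 1.06 to 1.81 when 1 library was left out. Of the 17, 10 had separate groups above week 8, where 12.5% of all genes did. Lcn2 was at 1.21, 4.13 and 2.07 CPM at week 8 and at 113, 55.2 and 30.9 CPM at week 10 (4.74 ± 1.05, adjusted p = 0.0669, edgeR). Week 10 replicate 1 was highest in both Lcn2 and lipocalin, and replicates 2 and 3 were in opposite order in the 2 measures. Nos2, the inducible nitric oxide synthase, was at 17.2, 80.8 and 141 CPM and then at 373, 554 and 659 CPM (2.73 ± 0.72). Reg3g, a lectin that kills Gram-positive bacteria, was at 0.127, 1.30 and 0.518 CPM and then at 129, 21.3 and 3.94 CPM. Pigr, which carries antibodies across the epithelium, was at 4930, 4020 and 6170 CPM and then at 1190, 2920 and 4320 CPM, with overlapping groups. Cornified envelope genes, of skin type, had positive changes in 6 of 8 tested members with a median of 4.28, which was 1.86 without week 10 replicate 1. Without week 14 only 4 members met the filter on low counts, 2 of them positive, and the median was 0.67. Of the 8, 1 had a higher and 1 a lower separate week 10 group, where 12.5% and 11.5% of all genes did.

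Genes of the unfolded protein response had positive changes in all 13 members, also within cage B and within cage C. The list's median of 1.27 stayed between 1.06 and 1.41 when any 1 library was left out. Separate groups above week 8 were found for 9, where 12.5% of all genes had them. Against 1773 of all 16176 genes, 9 of the 13 rose without week 14, and none passed in the main fit. Their median SD of log2 CPM was 0.45 within week 8 and 0.49 within week 10, against 0.37 and 0.46 over all genes. Hspa5, the chaperone BiP of the endoplasmic reticulum, was at 429, 351 and 714 CPM at week 8 and at 1260, 1140 and 1320 CPM at week 10 (1.32 ± 0.29, adjusted p = 0.0703, edgeR). Xbp1, the transcription factor of this response, was at 265, 230 and 249 CPM and then at 682, 550 and 467 CPM (1.19 ± 0.33). Creld2, an ER-resident target, was at 21.4, 42.2 and 36.7 CPM and then at 87.7, 95.5 and 100 CPM. The week 10 mice were close to each other in Hspa5 and Creld2.

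Lists with members that passed in the main fit were few. Among NF-kB regulators Tnfaip2 and Bcl3 rose, 2 of 13, with a list median of 0.73 that ran from 0.5 to 0.78 when 1 library was left out. Socs3, an inhibitor of STAT3 signalling, was at 9.99, 30.0 and 10.8 CPM and then at 197, 146 and 162 CPM (3.32 ± 0.77, adjusted p = 0.0742, edgeR). Among hypoxia and glycolysis genes Pfkfb3 rose, 1 of 17, and 13 had positive changes, with a median of 0.79 (0.35 without week 10 replicate 1). The glycolytic enzymes Ldha, Aldoa, Eno1 and Pkm had changes between -0.21 and 0.36. In the fit without week 14 the glycolytic enzymes Hk2 and Pgk1 had changes of 1.24 and 0.51. Among leukocyte adhesion genes Sele rose, 1 of 12, and the list's median of 0.31 ran from -0.01 to 0.70 when 1 library was left out. Icam1, the endothelial ligand of leukocyte integrins, was at 16.5, 30.2 and 23.9 CPM and then at 36.2, 87.4 and 70.4 CPM (1.46 ± 0.35, adjusted p = 0.0835, edgeR). Ribosome biogenesis, a list drawn up after Nop58 had been seen to rise, had positive changes in 25 of 27 members with a median of 0.71. Of the 27, 11 had separate groups above week 8, where 12.5% of all genes did. Without week 10 replicate 3 that median was 0.22, and within cages it was -0.14 in cage B, with 12 of 27 positive, and 0.78 in cage C, with 25 of 27 positive. Nucleotide and polyamine synthesis, drawn up after Srm and Ctps had been seen, had a median of 0.31 that ran from -0.0 without week 10 replicate 3 to 0.59 without week 10 replicate 1, with -0.06 in cage B and 0.47 in cage C. Odc1, the first enzyme of polyamine synthesis, was at 84.0, 75.9 and 97.8 CPM and then at 355, 215 and 226 CPM (1.63 ± 0.34, adjusted p = 0.0564, edgeR).

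Lists of colonocyte metabolism had negative medians, and none of their members passed in the main fit. Without week 14, 10 of 22 xenobiotic genes fell and 1 rose, and 10 of 17 fatty acid genes fell and 1 rose. Of all 16176 genes in that fit 1721 fell and 1773 rose. With library size scaling or cage as a factor no member of either list passed. Xenobiotic metabolism had negative changes in 20 of 22 members, with a median of -0.87, and 11 had separate groups below week 8 where 11.5% of all genes did. The median was -1.49 without week 10 replicate 2 and -0.76 without week 10 replicate 1. Within cages it was -2.12 in cage B, with 3 of 22 positive, and -0.22 in cage C, with 7 of 22 positive. Cyp2c68, a cytochrome P450, was at 34.4, 45.4 and 40.3 CPM and then at 5.99, 18.4 and 7.89 CPM (-1.90 ± 0.38, adjusted p = 0.0538, edgeR). Ces2e, a carboxylesterase, was at 75.6, 149 and 118 CPM and then at 218, 290 and 275 CPM, a positive change of 1.19 ± 0.32. Fatty acid oxidation and ketogenesis had negative changes in 15 of 17 members, and 10 had separate groups below week 8. The list's median of -0.68 ran from -0.76 to -0.47 when 1 library was left out. Acaa2, a thiolase, was at 71.0, 57.8 and 49.9 CPM and then at 21.1, 35.3 and 34.4 CPM (-0.98 ± 0.32, adjusted p = 0.153, edgeR), and Acadl, a dehydrogenase of long acyl chains, had a positive change of 0.89 ± 0.30.

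Markers of several types of resident cell had negative medians, which moved when single libraries were left out. Goblet cell and enteroendocrine markers did not, with medians of 0.09 and 0.34. Absorptive colonocyte markers had negative changes in 14 of 20 members with a median of -0.78, and 7 had separate groups below week 8, where 11.5% of all genes did. Car1, carbonic anhydrase 1, was at 396, 264 and 219 CPM and then at 102, 92.1 and 69.7 CPM (-1.74 ± 0.48, adjusted p = 0.104, edgeR). Crypt stem cell and Wnt target genes were negative in 11 of 11 with a median of -0.65, and Ephb3, a receptor that positions crypt cells, had a change of -1.22 ± 0.56. In bulk tissue fewer cells of a type and less RNA per cell cannot be told apart. The summed CPM of smooth muscle markers stood at 6290, 4760 and 3770 in the week 8 libraries and at 1480, 5440 and 6080 in the week 10 libraries, so that week 10 replicate 1 was low in muscle. Without that library the medians were -0.41 for absorptive colonocytes, -0.51 for crypt genes and 0.04 for smooth muscle, against -0.35 for smooth muscle with it. Without week 10 replicate 3 they were -1.13, -1.12 and -0.76. In cage B the medians of these 3 lists were -1.79, -2.28 and -2.23, and in cage C they were -0.10, -0.60 and 0.10. The part of muscle content in the other results was not tested. Fibroblast and matrix genes had a median of -0.72, which was -0.14 without week 8 replicate 1 and -1.48 without week 10 replicate 3. Endothelial markers had a median of -0.58, which was -0.22 and -0.95 without those libraries.

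Like the neutrophil list, the lists of other immune cell markers had no member that passed in the main fit. Without week 14, 5 of 16 macrophage and monocyte genes, 1 of 14 T cell genes and 1 of 10 cytotoxic cell genes rose. In that fit 1 of 9 mast cell genes rose and 1 fell, and no B cell or plasma cell gene passed. Of all 16176 genes there, 1773 rose and 1721 fell. Main-fit medians were 0.28 for 16 macrophage and monocyte genes, 0.22 for 14 T cell genes, -0.12 for 11 B cell genes, 0.25 for 14 plasma cell genes and 1.17 for 10 cytotoxic cell genes, and the first 4 changed sign when 1 library was left out. The cytotoxic median ran from 0.51 without week 10 replicate 2 to 1.64 without week 8 replicate 2. Within cages B and C the medians were 0.47 and -0.28 for macrophages and monocytes, 0.82 and -0.13 for T cells, 0.40 and -0.25 for B cells, 0.65 and 0.26 for plasma cells and 2.01 and 0.65 for cytotoxic cells. Cd14, the lipopolysaccharide co-receptor that works with Lbp, was at 92.4, 209 and 241 CPM and then at 725, 610 and 493 CPM (1.75 ± 0.55, adjusted p = 0.141, edgeR). Mast cell genes had positive changes in 6 of 9 members with a median of 0.69, which was 0.31 without week 8 replicate 3. Of the 9, 1 had separate groups above week 8, where 12.5% of all genes did. Their summed level was 64.9, 54.4 and 58.2 CPM at week 8 and 79.1, 44.3 and 45.9 CPM at week 10. Kit, the stem cell factor receptor, had a change of -1.36 ± 0.65 and Tpsb2, a tryptase, of -1.43 ± 1.05. Hdc, histidine decarboxylase, was at 0.761, 1.48 and 0.925 CPM and then at 31.7, 6.55 and 3.79 CPM (3.72 ± 0.92, adjusted p = 0.0891, edgeR). Enteric neuron and glia markers were negative in 12 of 14, but Tac1, the substance P gene, was at 21.1, 18.1 and 17.1 CPM and then at 496, 92.5 and 67.9 CPM. Regenerative epithelium genes had a median of 1.55, which was 0.42 without week 10 replicate 1, and matrix proteases and inhibitors had a median of 1.53, which was 0.96 without that library.

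**Figure D4:**
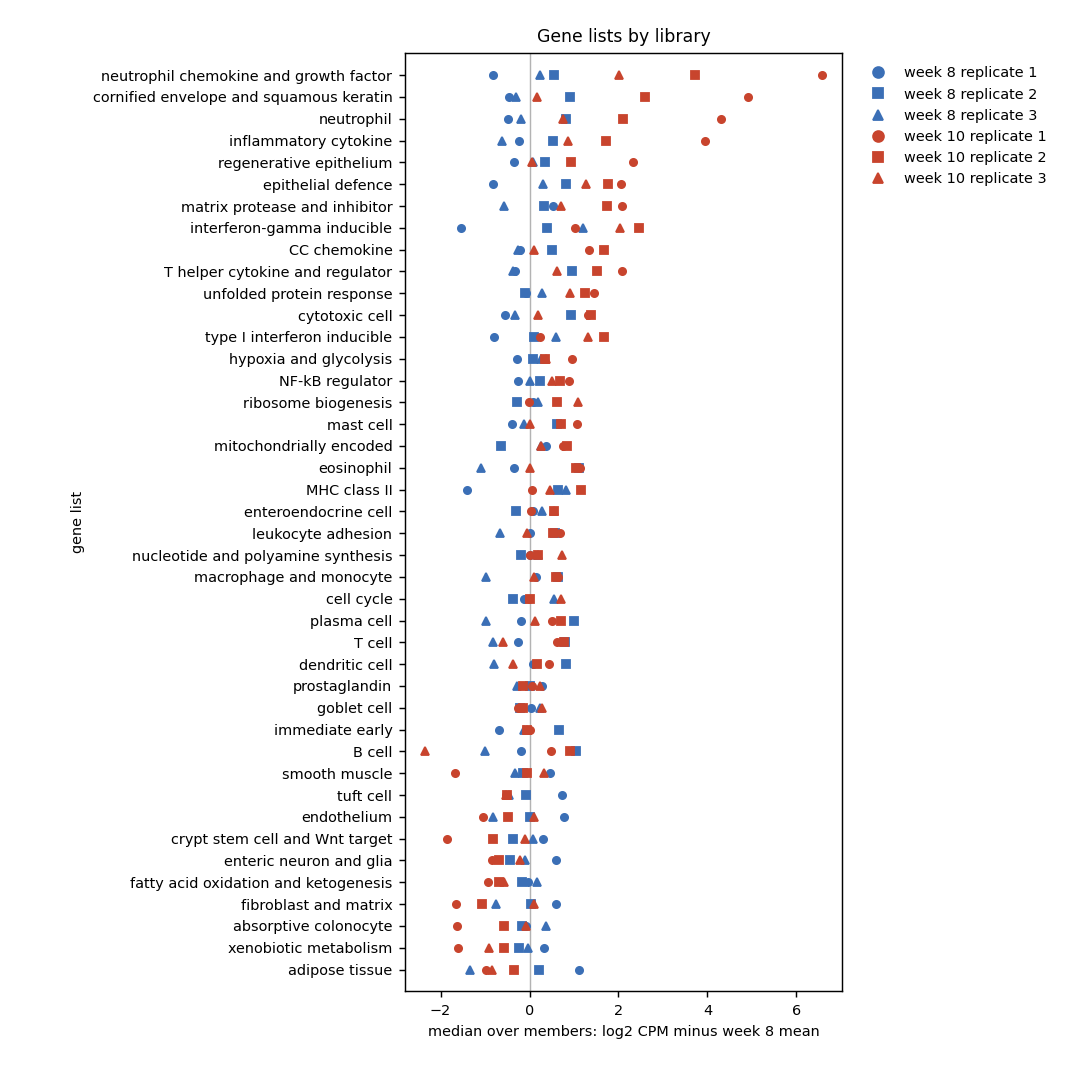
Rows are gene lists and points are libraries, at the median over the list's members of log2 CPM minus the week 8 mean of each member. Week 10 replicate 1 (red circles) reaches furthest in the neutrophil chemokine and cornified envelope rows and lies lowest in the smooth muscle row. The red and blue points of the unfolded protein response do not overlap, as in other rows such as epithelial defence, NF-kB regulator and fatty acid oxidation.

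Whether a gene changed differently from week 8 to 10 than from week 6 to 8 was tested as the difference of the 2 steps. No gene passed (smallest adjusted p = 0.568, edgeR), 526 genes, or 3.23%, had an unadjusted p under 0.05 where 815 would by chance, and DESeq2 called 6 genes above and 11 below. Genes with the smallest p in this test included Ido1, whose log2 change was 8.01 from week 6 to 8 and 1.05 from week 8 to 10, a difference of -6.95 ± 1.62 (unadjusted p = 0.000594, edgeR). Pla2g3, a secreted phospholipase, had changes of 1.26 and -2.21, with 10.7, 34.6 and 29.6 CPM at week 8 and 3.69, 6.49 and 6.02 CPM at week 10. In the other direction, Lars2 had changes of -1.80 and 2.88, and Tgm2 of -0.29 and 2.27. Sele, with changes of -1.77 and 3.82, and Ppid, with -0.21 and 1.01, were also among these, as was Slc19a1, a folate transporter, with -0.48 and 1.18. Krtap4-16, a keratin-associated gene with a lower second step as for Ido1, had the smallest p of this test (unadjusted p = 3.49e-05, edgeR), with changes of 3.73 and -2.16. 2310079G19Rik had changes of 3.03 and -1.11. The 2 steps share the week 8 libraries, so a high or low week 8 value moves both.

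Levels at week 12, measured in 3 other Il10KO mice, lay near those of week 8 for some of these genes. Fut2 was at 163, 128 and 137 CPM, Tnfaip2 at 18.5, 28.9 and 20.3 CPM and Srm at 26.4, 25.7 and 28.7 CPM. Their log2 changes from week 10 to 12 were -2.17, -1.66 and -1.50. Tifa stood between the ages, at 63.9, 70.4 and 49.7 CPM, and Lars2 stayed high, at 2970, 1620 and 1040 CPM. Among the fallers Acer1 was at 23.9, 24.2 and 23.0 CPM and Ppfia3 at 17.7, 19 and 17.3 CPM at week 12, close to week 8, while Pdcd4 was at 71.6, 71.8 and 77.8 CPM. The comparisons of week 10 with week 8 and of week 12 with week 10 share the week 10 libraries, so their opposite signs are not independent. Lipocalin in the 3 week 12 mice was 444.2 ng/g or higher.

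**Figure D5:**
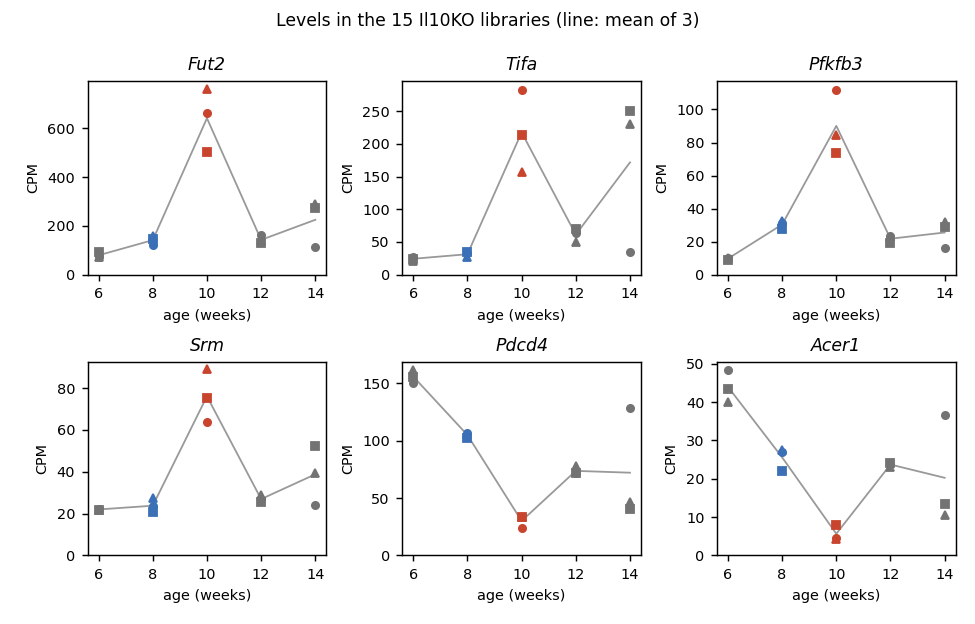
Each panel gives CPM against age in weeks for the 15 Il10KO libraries, with week 8 in blue, week 10 in red, other ages in grey and a line through the means of 3. Fut2, Tifa, Pfkfb3 and Srm peak at week 10 and Pdcd4 and Acer1 are lowest there, with Fut2 at 504 CPM or more at week 10 and 163 CPM or less at weeks 8 and 12.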

How the data were processed

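Polyadenylated RNA of distal colon pieces had been sequenced with paired 150-base reads, per the labels' protocols. FastQC and kallisto on build mm10 are named in the submitters' processing notes, with versions and annotation release not given in the sources used here. The gene table the authors deposited holds estimated counts summed per symbol for 16321 genes, whose totals over the 18 libraries were 50 or more. The deposited transcript and gene tables also give TPM, a length-scaled share, per the file headers. Positions and transcript types came from GENCODE M21, which held 97.68% of the transcripts.

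Rounded counts were tested with edgeR 4.0.16 (TMM, filterByExpr, quasi-likelihood F-test) in 1 fit of 6 group means over 18 libraries, with 12 residual degrees of freedom and a common coefficient of variation of 0.394. P values are two-sided and Benjamini-Hochberg adjusted over 16300 genes, with a threshold of 0.05. CPM were scaled by TMM, and log2 values had 2 added as a prior count. SE is the absolute log2 fold change of a fit without a prior count over the square root of F. The printed log2 fold changes come from the fit of the test, so the SE is not exactly the printed change over that root. Limits of 0 and bounds, at 3 counts, cover counting error only. The labels put replicate 1 of both ages in cage B, replicate 2 in cage C and replicate 3 in cages D and F. The edgeR p values set a difference of group means against a spread between mice that was estimated from all 18 libraries.

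Named genes were the 10 largest rises and 10 largest falls among genes that passed without overlap at a mean log2 CPM of at least 1, the 5 smallest p in each direction and of the step test, the member of each list with the smallest p or its 3 largest that passed, and Il10 and Lcn2. Not every gene this rule covers is given, and other genes in the text were chosen after their values were seen. The comparison, the 40 lists and the rule were chosen with earlier results of these data known, and 2 further lists (ribosome biogenesis, nucleotide and polyamine synthesis) after the values were seen. Lists are described by counts and medians, with no test.

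Alternatives were RLE or library size scaling, DESeq2 1.42.0, limma-trend (limma 3.58.1) on log2 TPM with pseudocounts of 1 and 0.1, other filters, voom with group weights, RIN, cage or replicate number as terms, transcript sums with a length offset, fits without week 14 or with only the groups compared, and leaving out libraries. Omitting replicate 1 of both ages was added after the data were seen. On data simulated for week 10 against week 8, with 200 changed genes, edgeR recovered 66% of 4-fold and 8% of 2-fold changes with 1.33% false calls, and DESeq2 80% and 29% with 29.7% false calls. R 4.3.3 and Python 3.11.15 were used.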

Additional observations from a re-analysis of the deposited data

How the results depend on the processing

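The main counts were 19 genes higher and 13 lower at week 10. Library size in place of TMM gave 12 and 4, under which the median log2 change of all genes was -0.24, against -0.02 with TMM. DESeq2 gave 520 and 362, limma-trend 16 and 4 with a pseudocount of 1 and 1 and 1 with 0.1, a filter of at least 1 CPM in 3 libraries gave 34 and 33, voom with group weights 42 and 31, RIN as a covariate 1036 and 895, and a fit without week 14 1773 and 1721. Only the groups compared, cage as a factor, and omitting replicate 1 of both ages each gave 0 and 0, with 3055, 3689 and 1165 genes at an unadjusted p under 0.05. Leaving out 1 library gave 0 to 10 higher and 0 to 14 lower. The cause of these differences was not tested. All 32 genes kept their direction in every setting in which they were tested. Their groups do not overlap in these same libraries, so a kept direction was nearly certain beforehand and does not bear on the calls.

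Replicates 1 and 2 of both ages share cages B and C, and replicate 3 shares none, so the labels give no pairing of all 3 numbers. Deviations of same-numbered libraries had correlations of -0.23, 0.242 and 0.159, not positive in every pair. With the replicate block 8 genes were higher and 6 lower. For the difference of steps, 0 genes in either direction, DESeq2 gave 6 above and 11 below, the fit without week 14 gave 2 and 6, and leaving out 1 library gave 0 to 1 below.

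Each group has 3 mice, which limits precision, and depth limits Sele, which had 4 counts at week 8. The simulation drew equal spread in each group, while voom weights were 0.743 at week 8, 0.509 at week 10 and 0.177 at week 14, so its shares do not describe these groups.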

Other observations

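The remaining gene lists had no member that passed between week 8 and week 10 in the main fit (edgeR, adjusted p under 0.05). Without week 14, 4 of 24 cell cycle and 4 of 10 enteroendocrine genes rose and 2 of 8 prostaglandin genes fell. Of all 16176 genes in that fit 1773 rose and 1721 fell. Cell cycle genes had positive changes in 19 of 24 members with a median of 0.25, and Rrm2, a subunit of ribonucleotide reductase, stood at 23.9, 35.9 and 43.7 CPM and then at 109, 65.0 and 88.4 CPM. Enteroendocrine markers had a median of 0.34, and Gcg, the proglucagon gene, was at 33.5, 39.5 and 41.0 CPM and then at 69.3, 96.4 and 64.2 CPM, with separate groups. Goblet cell markers had a median of 0.09, and Muc2, the main mucin, was at 105, 45.2 and 175 CPM and then at 42.2, 54.6 and 96.1 CPM. Tuft cell markers were negative in 9 of 9 with a median of -0.58. Prostaglandin genes had a median of 0.11, with Hpgd at 137, 129 and 189 CPM and then at 59.4, 83.6 and 77.6 CPM. Dendritic cell and eosinophil markers had medians of 0.11 and 0.54, and adipose markers had a median of -1.12. When 1 library was left out, the medians ran from 0.05 to 0.60 for cell cycle, from 0.21 to 0.60 for enteroendocrine, from -0.15 to 0.13 for goblet cell, from -0.92 to -0.11 for tuft cell, from -0.14 to 0.26 for prostaglandin, from -0.22 to 0.29 for dendritic cell, from 0.22 to 1.72 for eosinophil and from -1.35 to -0.75 for adipose genes.

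Markers of sample quality gave a median of 0.03 for immediate early genes and of 0.56 for mitochondrially encoded genes, which ran from -0.32 to 0.23 and from 0.31 to 0.77 when 1 library was left out. The summed level of the latter was 53400, 28100 and 50500 CPM at week 8 and 68700, 79300 and 49900 CPM at week 10, lowest in week 8 replicate 2, which also had the lowest RIN of the 6 libraries at 8.4. The part of this in other results was not tested.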
